A study of Sus scrofa with 8 samples.

Results

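The receptors for oestradiol, progesterone and glucocorticoids, with their chaperones and a co-activator, were examined in pig oviducts that held Y-bearing or X-bearing spermatozoa. The genes asked for were 9: ESR1, ESR2, PGR, PGRMC1, PGRMC2, NR3C1, FKBP4, FKBP5 and NCOA1. Members were all probe sets whose only gene symbol in the platform annotation is among these names. The rule gave 17 of the 24123 probe sets of the array, for 8 of the 9 genes and of 6765 genes named this way in all, and PGRMC2 was not analysed here. ESR1, ESR2, PGR, PGRMC1 and FKBP4 had 1 probe set each, FKBP5 had 2, NR3C1 had 4 and NCOA1 had 6.

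The animals were weaned crossbred sows of a Landrace × Large White line, in oestrus and before ovulation, with no age in the labels. In each of 4 sows, flow-sorted Y-bearing spermatozoa were placed in a single oviduct and flow-sorted X-bearing spermatozoa in the contralateral oviduct, after both uterine horns had been stapled. Each dose was pooled over several boars, and the sorted fractions were not pure. Cells scraped from the mucosa 24 h later gave 8 Affymetrix Porcine arrays, from Y1 to Y4 (Y-spermatozoa, n = 4) and from X1 to X4 (X-spermatozoa, n = 4). They are named here by sperm type and the replicate number in the labels, which is taken as the sow. All oviducts held sorted spermatozoa, so the values compare 2 sperm types and say nothing of an oviduct without spermatozoa.

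Steroid receptors are transcription factors that a hormone switches on. Before the hormone binds, the receptor is held by the HSP90 chaperone with co-chaperones such as FKBP4, which favours hormone binding, and FKBP5, which lowers it for the glucocorticoid receptor in human and mouse cells. The bound receptor then recruits co-activators of the p160 family, of which NCOA1 was the first described. In the oviduct, oestradiol acting through ESR1 dominates before ovulation and promotes secretion and growth of the epithelium, ESR1 drives PGR, and progesterone acts later on cilia, muscle and secretion.

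The values are linear signals of Microarray Suite, scaled by the authors to a common mean on each array. They are given below as deposited, while differences and tests use quantile-normalized log2 signals (Y-spermatozoa minus X-spermatozoa) in limma, fitted over 23999 probe sets. Signals of different probe sets are not compared with each other, since each probe set has its own response. A background level was set at the 95th percentile of the 81 reporter and tag probe sets, which match no pig transcript, and was 8.5 to 12.3 on the 8 arrays, and the median signal was 38.7 to 41.2. Of the 17 probe sets, 14 lay above background on all 8 arrays, 1 of FKBP5 on 6 arrays, and those of ESR2 and 1 of NR3C1 on none.

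The scraped cells carried the markers of the oviduct lining. All 6 epithelial markers (EPCAM, KRT8, KRT18, KRT19, CDH1 and CLDN4) were above background on every array, and their summed signal ranged from 8162.6 to 9781.4 with Y-spermatozoa and from 7228.8 to 8333 with X-spermatozoa. The 6 smooth muscle markers measured were above background on every array too, at sums of 1548.7 to 6727.5 with Y-spermatozoa and 2462.2 to 7624 with X-spermatozoa. Stromal markers (5 of 6 above background on every array) summed to 3198.6 to 6815.2 with Y-spermatozoa and 4308.4 to 5375.7 with X-spermatozoa. The preparation was therefore not epithelium alone, and in such bulk samples fewer cells of a type and less RNA per cell cannot be told apart. Endothelial markers (4 of 6 above background on every array) summed to 217.6 to 427.4 with Y-spermatozoa and 245.4 to 359.7 with X-spermatozoa. Leukocyte markers (3 of 6) summed to 68.3 to 92.5 with Y-spermatozoa and 70.3 to 72.4 with X-spermatozoa. The 3 ciliated cell markers measured summed to 2021.5 to 2853.6 with Y-spermatozoa and 1938.6 to 2411.2 with X-spermatozoa, and the red blood cell markers (1 of 3) to 209.5 to 251.7 with Y-spermatozoa and 215.8 to 261.9 with X-spermatozoa. The 2 secretory markers measured, OVGP1 and MUC1, summed to 7979.5 to 9369 with Y-spermatozoa and 6010.8 to 8567.3 with X-spermatozoa, and none of 4 sperm transcripts (PRM1, PRM2, TNP2 and ODF1) was above background on every array, at sums of 23.5 to 37.5 with Y-spermatozoa and 26.9 to 39.8 with X-spermatozoa.

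**Figure D1:**
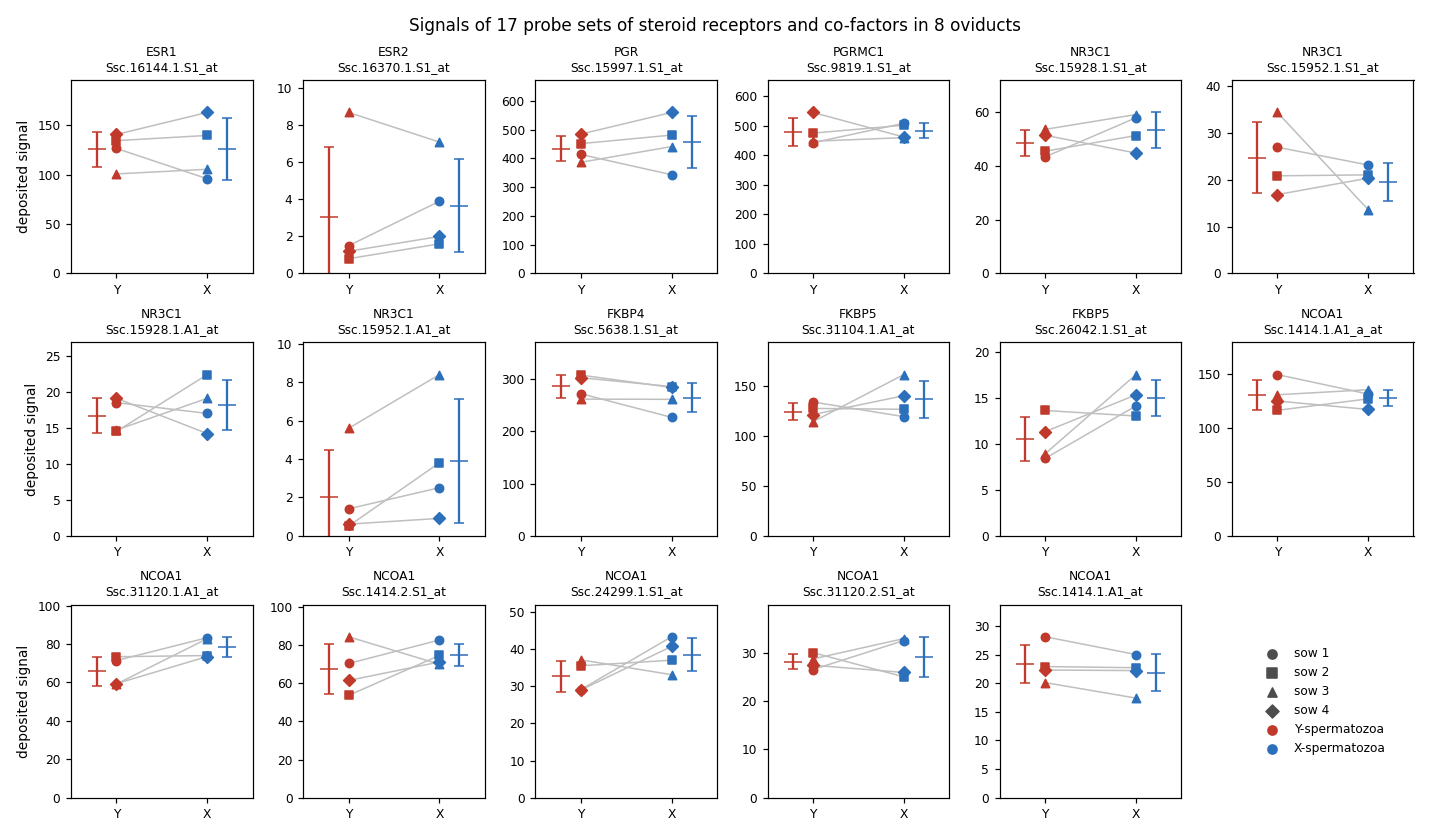
Deposited signal (vertical axis, linear, starting at 0) of each of the 17 probe sets with Y-spermatozoa (left, red) and X-spermatozoa (right, blue). Points are arrays, shapes are sows, grey lines join the oviducts of a sow, and bars beside the points are mean ± SD (n = 4), 2 of which (ESR2 and NR3C1 Ssc.15952.1.A1_at with Y-spermatozoa) reach below 0 and are cut by the axis. PGR, PGRMC1 and FKBP4 stand well above the background of 8.5 to 12.3, while ESR2 reaches at most 8.7.

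ESR1 encodes oestrogen receptor alpha, through which oestradiol acts on the lining and the muscle of the tract. Its signals were 126.7, 134.6, 100.9 and 140.9 in Y1 to Y4, against 96.0, 139.9, 105.6 and 163.2 in X1 to X4. The groups overlapped, with Y-spermatozoa higher in sow 1 and lower in the other 3 sows. The means were 125.78 ± 17.57 with Y-spermatozoa and 126.17 ± 31.05 with X-spermatozoa (SD, n = 4 each). The log2 difference was 0.03 (standard error 0.21, exact permutation p = 0.886, limma p = 0.906), and its 95% interval allows a ratio of Y-spermatozoa to X-spermatozoa between 0.728 and 1.42.

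ESR2, oestrogen receptor beta, gave signals of 1.5, 0.8, 8.7 and 1.2 with Y-spermatozoa and 3.9, 1.6, 7.1 and 2.0 with X-spermatozoa. All 8 values were below the background level of their arrays, so no fold is given for ESR2. In sow 3 the probe set gave its highest signal in either group.

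PGR encodes the nuclear progesterone receptor, itself a classical target of ESR1. Its signals were 413.8, 451.4, 386.6 and 484.6 with Y-spermatozoa, against 343.3, 481.1, 441.2 and 559.9 with X-spermatozoa. As for ESR1, the Y-spermatozoa oviduct was higher in sow 1 and lower in sows 2, 3 and 4. The means were 434.1 ± 42.89 with Y-spermatozoa and 456.38 ± 90.08 with X-spermatozoa (SD, n = 4 each). On the normalized scale PGR had a log2 difference of -0.06 (standard error 0.17, exact permutation p = 0.657, limma p = 0.71), with an interval for the ratio of 0.729 to 1.25.

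PGRMC1, a haem-binding membrane protein linked to rapid progesterone effects and to sterol synthesis, varied least of the 17 probe sets, with its highest signal 1.23 times its lowest. It gave 441.9, 474.3, 446.8 and 544.2 with Y-spermatozoa and 507.6, 501.0, 459.1 and 461.1 with X-spermatozoa. The groups overlapped, and Y-spermatozoa were higher in sow 4 alone. The log2 difference was -0.03 (standard error 0.11, exact permutation p = 0.743, limma p = 0.783), and the interval bounds the ratio between 0.823 and 1.16.

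NR3C1 encodes the glucocorticoid receptor, which senses cortisol. Its brightest probe set, Ssc.15928.1.S1_at, gave 43.3, 45.4, 53.5 and 51.3 with Y-spermatozoa and 57.8, 51.2, 59.0 and 44.7 with X-spermatozoa. Y-spermatozoa were lower in 3 sows and higher in sow 4, with a log2 difference of -0.11 (standard error 0.13, exact permutation p = 0.371, limma p = 0.44) and an interval for the ratio of 0.754 to 1.15. The other NR3C1 probe sets did not share a direction. Ssc.15952.1.S1_at had a log2 difference of 0.37 (standard error 0.26, exact permutation p = 0.257, limma p = 0.195), of which sow 3 gave the most, at signals of 34.3 with Y-spermatozoa and 13.6 with X-spermatozoa. Ssc.15928.1.A1_at, with signals of 14.2 to 22.4, had a log2 difference of -0.05 (standard error 0.18). Ssc.15952.1.A1_at was not above background on any array, with signals of 0.5 to 8.4. The 4 probe sets of NR3C1 therefore give no common sign, and none passed the test.

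FKBP4 encodes FKBP52, the HSP90 co-chaperone that female mice need for progesterone action in the uterus. Its signals were 272.6, 308.2, 262.1 and 303.2 with Y-spermatozoa and 227.1, 284.5, 261.7 and 286.2 with X-spermatozoa. As deposited, the Y-spermatozoa oviduct had the higher signal in each sow, by the least in sow 3, where quantile normalization turned it to just under 0, so that 3 of 4 sows were higher on the tested scale. The groups overlapped at means of 286.52 ± 22.65 with Y-spermatozoa and 264.88 ± 27.55 with X-spermatozoa (SD, n = 4 each). The log2 difference was 0.11 (standard error 0.12, exact permutation p = 0.314, limma p = 0.378), with a ratio between 0.89 and 1.32.

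FKBP5 encodes FKBP51, which is induced by glucocorticoids and progestins and dampens the glucocorticoid receptor. Its brighter probe set, Ssc.31104.1.A1_at, gave 133.6, 127.2, 113.9 and 121.1 with Y-spermatozoa and 119.0, 126.3, 161.0 and 139.9 with X-spermatozoa. The groups overlapped, Y-spermatozoa were higher in 2 sows and lower in 2, and the log2 difference was -0.14 (standard error 0.13, exact permutation p = 0.286, limma p = 0.317). The dimmer probe set, Ssc.26042.1.S1_at, gave 8.4, 13.6, 8.9 and 11.3 with Y-spermatozoa and 14.1, 13, 17.5 and 15.3 with X-spermatozoa. Only Y2 reached the range of the X-spermatozoa arrays, and Y1 and Y3 were below background. Its log2 difference was -0.44, lower in 3 of 4 sows (standard error 0.19, limma p = 0.0474, adjusted p = 1, exact permutation p = 0.0857). With a pseudocount of 16, which weighs down signals near background, the log2 difference was -0.19 (standard error 0.10) and no longer passed. The exact tests are two-sided over the 70 relabellings of the arrays and ignore the sows.

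This dimmer FKBP5 probe set was the single member of the 17 with an unadjusted p under 0.05 in limma. Over all 23999 probe sets 3.56% passed this threshold (1.62% higher and 1.94% lower with Y-spermatozoa), so that 1 call among 17 is near the share of the whole array. After Benjamini-Hochberg adjustment 0% of all probe sets and 0 of the 17 passed. When the sow entered the limma fit as a block, since the oviducts come in pairs, the FKBP5 probe set no longer passed (p = 0.0888, beside the exact permutation p above), and 0 of the 17 did, against 5.09% of all probe sets. The spiked hybridisation controls, which carry no pig RNA, had mean log2 signals of 9.94 ± 0.10 on the Y-spermatozoa arrays and 9.73 ± 0.07 on the X-spermatozoa arrays (SD, n = 4 each, exact permutation p = 0.0571). With their level as a covariate, an alternative chosen after the values were seen, the log2 difference of the dimmer FKBP5 probe set was 0.07 (standard error 0.25).

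**Figure D2:**
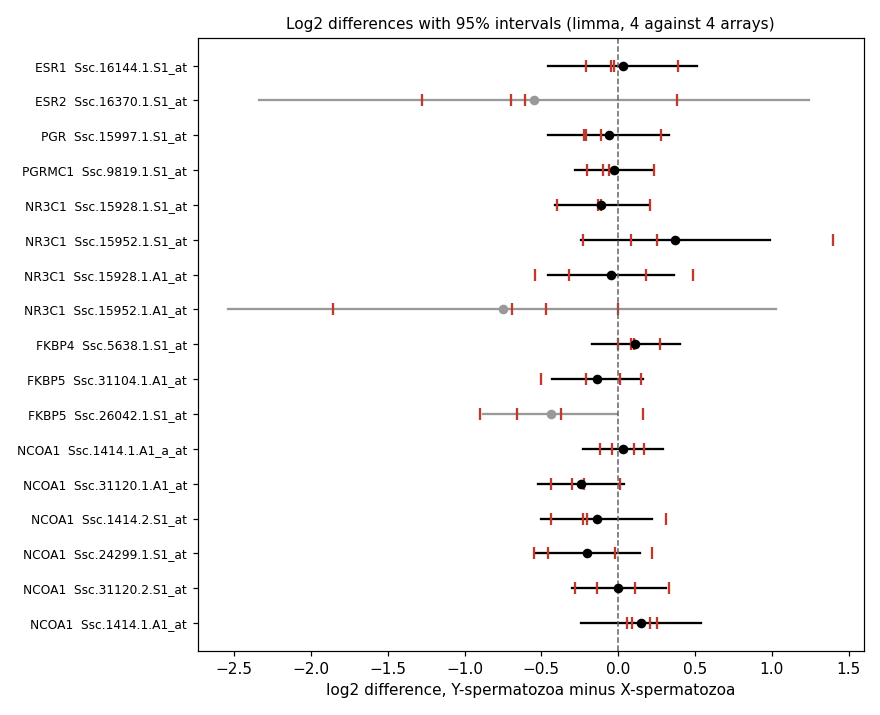
Normalized log2 signal with Y-spermatozoa minus that with X-spermatozoa (horizontal axis) for each of the 17 probe sets. Circles and lines are the limma estimate and its 95% interval, red ticks are the 4 differences within sows, and grey marks the 3 probe sets not above background on every array. The interval of the dimmer FKBP5 probe set ends at -0.01, and those of the other 16 contain 0.

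NCOA1, also known as SRC-1, binds ligand-occupied receptors and brings histone acetylation to their target genes. The brightest of its 6 probe sets, Ssc.1414.1.A1_a_at, gave 149.3, 116.2, 130.6 and 124.8 with Y-spermatozoa and 131.3, 126.8, 135.3 and 117.0 with X-spermatozoa. The groups overlapped and the log2 difference was 0.03 (standard error 0.11, exact permutation p = 0.857, limma p = 0.814), with a ratio between 0.851 and 1.22. Ssc.31120.1.A1_at gave 71.4, 73.4, 59.2 and 59.4 with Y-spermatozoa and 83.3, 74.0, 82.8 and 73.5 with X-spermatozoa. It was the 1 probe set of the 17 whose deposited signals did not overlap between groups, against 2.3% of all probe sets, and the gap was that between 73.4 in Y2 and 73.5 in X4. On the normalized scale Y2 lay at 6.22 and the lowest X-spermatozoa arrays at 6.21, so that the groups overlapped there, and the log2 difference was -0.24 (standard error 0.12, limma p = 0.0868, exact permutation p = 0.0857). Ssc.1414.1.A1_at was the 1 probe set with the same direction in 4 of 4 sows (13.2% of all probe sets), at 28.1, 22.9, 20.1 and 22.3 with Y-spermatozoa and 25, 22.7, 17.4 and 22.2 with X-spermatozoa, a log2 difference of 0.15 (standard error 0.17, exact permutation p = 0.4, limma p = 0.391, and 0.161 in the blocked fit). The remaining NCOA1 probe sets had log2 differences of -0.20, -0.14 and 0.00, with exact permutation p-values of 0.143, 0.4 and 0.971. The 6 probe sets of NCOA1 thus had no common sign, and none passed the test in limma. The methods' t-test, without moderation, called Ssc.31120.1.A1_at before adjustment and not the dimmer FKBP5 probe set, and 0 of the 17 after it.

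Over the 17 probe sets, 6 log2 differences were positive and 11 negative, and their median was -0.06 against 0 for all probe sets tested. The probe sets of 1 gene share its transcripts and are not replicates. What the arrays allow is an upper bound on change, within the fit used. For the probe sets of ESR1, PGR, PGRMC1 and FKBP4, the 95% intervals of the unblocked fit ended at ratios of 0.728 on the low side and 1.42 on the high side. Some other members had wider bounds. Among those above background on any array, they went up to 1.98 for NR3C1 Ssc.15952.1.S1_at and down to 0.543 for the dimmer FKBP5 probe set. The 2 probe sets above background on no array, ESR2 and NR3C1 Ssc.15952.1.A1_at, had still wider intervals, so their change is not bounded usefully. With the hybridisation covariate the standard error of ESR1 was 0.38, against 0.21.

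ESR1, PGR and FKBP4 varied more by sow than by sperm type. When the variation of each probe set was split by sow, sperm type and residual, the sow took 81.7% of that of ESR1, 72.2% of PGR and 67.8% of FKBP4, and the sperm type 0.232%, 2.55% and 18.5%. With 3 of the 7 degrees of freedom, the sow takes a large share of any probe set: its median share was 55% over all probe sets and 31.4% over the 17. Over the 11999 probe sets brighter than the median, as those of ESR1, PGR and FKBP4 are, it was 63.9%. The sow share exceeded the sperm share in 12 of the 17, a count not made over all probe sets, and Ssc.1414.1.A1_at of NCOA1 had 83.9%. The median sperm share was 12.8% over the 17, against 6.1% over all probe sets. The order of the sows was similar for ESR1, PGR and FKBP4. ESR1 had mean log2 values of 6.78, 7.10, 6.67 and 7.26 in sows 1 to 4, PGR 8.55, 8.86, 8.70 and 9.02, and FKBP4 7.96, 8.20, 8.03 and 8.21. Sow 4 was the highest and sow 2 the next for each, with sows 1 and 3 below. For FKBP4, sows 2 and 4 were nearly level, and for ESR1 the lowest pair, sows 1 and 3, lay closer together than the oviducts of sow 1, which differed by 0.39.

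PGRMC1, with mean log2 values of 8.88, 8.93, 8.84 and 8.96, spread by little over the 4 sows, and the sow took 23.2% of its variation. The brightest NR3C1 probe set ran at 5.65, 5.60, 5.79 and 5.59 in sows 1 to 4, highest in sow 3, and that of FKBP5 at 6.97, 6.99, 7.07 and 7.04. Limma's moderated F-test of the sow terms, a test added after the values were seen, gave an adjusted p = 0.4 for ESR1, an adjusted p = 0.498 for PGR and an adjusted p = 0.574 for FKBP4. Of the 17 probe sets, 3 had an unadjusted p under 0.05 between sows, against 14.2% of all probe sets, and 0 passed after adjustment, as did 0% of all probe sets. The 3 were those of ESR2 and of NR3C1 that stayed below background on every array, and Ssc.1414.1.A1_at of NCOA1 (adjusted p = 0.347). Tested among the 11999 brighter probe sets alone, ESR1 passed the unadjusted threshold, with an adjusted p = 0.122. The share of these brighter probe sets that passed was not counted, so the ESR1 call cannot be set against it.

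Across the 8 arrays, which come from 4 sows and share their scaling, the log2 signals of ESR1 correlated with those of PGR by r = 0.88 and with those of FKBP4 by 0.82, and PGR with FKBP4 by 0.78. Those of ESR1 and the brightest NR3C1 probe set correlated by -0.75. The 28 pairs among the brightest probe sets of the 8 genes ranged from -0.78 to 0.88 with a median of 0.05, and these values are descriptions without a test. Markers of other cells moved over the same arrays. The summed smooth muscle signal was 1548.7, 5609.3, 2044.7 and 6727.5 in Y1 to Y4 and 2462.2, 7624, 6677.2 and 4246.4 in X1 to X4, and its log2 correlated with ESR1 by 0.42 and with PGR by 0.63. The epithelial sum correlated with ESR1 by 0.63, with PGR by 0.42 and with FKBP4 by 0.70. For the sum of 3 ciliated cell markers (TEKT1, TPPP3 and CAPS) the values were -0.70, -0.63 and -0.36. Over all marker lists, the correlations of ESR1, PGR, FKBP4 and NR3C1 ran from -0.70 to 0.70. The sums are of deposited signals, while the gene values are normalized. The part of these cells in the pattern of the receptors was not tested.

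**Figure D3:**
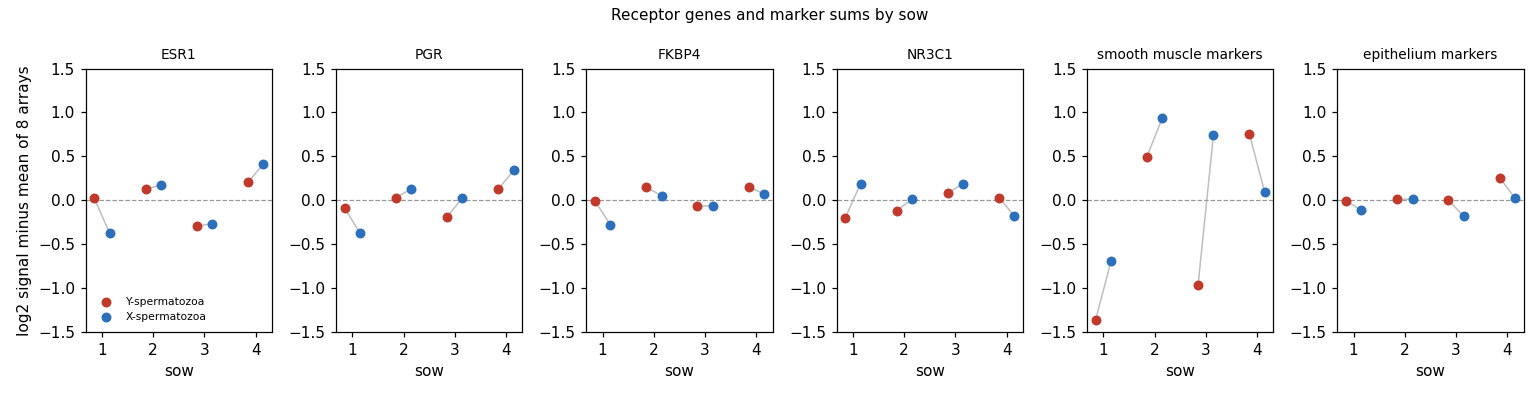
Normalized log2 signal of the brightest probe set of ESR1, PGR, FKBP4 and NR3C1, and log2 of the summed signals of the smooth muscle and epithelial markers, each minus its mean over the 8 arrays (vertical axis), by sow (horizontal axis). Red points are Y-spermatozoa and blue points X-spermatozoa. ESR1, PGR and FKBP4 are highest in sows 2 and 4, and the smooth muscle sum spans a far wider range than any receptor, with sow 3 split between its oviducts.

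The named genes whose pattern over the 8 arrays was most like that of ESR1, among 5940 brighter probe sets with a single symbol, were SLC25A1, the mitochondrial citrate carrier (r = 0.973), and the chaperones of the endoplasmic reticulum CALR (0.963) and HSPA5 (0.963). SLC25A1 gave 378.5, 478.1, 292.9 and 540.6 with Y-spermatozoa and 312.1, 476.6, 327.7 and 585.6 with X-spermatozoa. It was low in Y3, X1 and X3 and high in Y4 and X4, as ESR1 was. For PGR the nearest were FKBP14 (0.957) and SERPINH1 (0.944), which act on collagen folding in the endoplasmic reticulum, and SEC24C (0.957), a subunit of the vesicle coat that carries proteins out of it. For the brightest NR3C1 probe set they were MAT2B (0.926), a regulatory subunit of methionine adenosyltransferase, ZNF281 (0.915) and the histone methyltransferase gene NSD1 (0.909). Each is the best of 5940 candidates over only 8 arrays from 4 sows, so these names describe the arrays and carry no p.

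Genes around the receptors were described with 10 lists of 184 genes in all, of which 122 were measured, with the brightest probe set of each. Of these, 1 passed an unadjusted p under 0.05 in limma (0.82%, against 3.56% of all probe sets), and none after adjustment. The median log2 difference over the 122 was 0.02, against 0 for all probe sets.

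Among 7 other nuclear receptors measured, of the steroid class and its orphans, 0 were called, and log2 differences ran from -0.23 to 0.10. NR2F1 (COUP-TFI) averaged 287.8 ± 41.9 with Y-spermatozoa and 285.65 ± 14.44 with X-spermatozoa (SD, n = 4 each), and NR2F6 had a log2 difference of 0.10 (standard error 0.19). NR5A2 was not above background on any array. Of 8 membrane receptors for progesterone and PGRMC relatives, all above background on every array, 0 were called. PAQR8 and PAQR7 are membrane progesterone receptors, and their log2 differences were -0.07 and -0.01. CYB5A, a haem-binding cytochrome related to PGRMC1, was lower with Y-spermatozoa in 4 of 4 sows on the normalized scale, with a log2 difference of -0.09 (standard error 0.17, exact permutation p = 0.571). SERBP1, an RNA-binding partner of PGRMC1, had a log2 difference of 0.12 (standard error 0.10).

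The HSP90 machine, which folds the receptors and holds them ready for hormone, gave no call. All 15 members measured were above background on every array, and their log2 differences ran from -0.10 to 0.15 with a median of 0.03. HSP90AA1, the inducible HSP90, gave 4252.8, 3884.2, 4908.9 and 4444.1 with Y-spermatozoa and 3599.7, 3810.1, 4238.5 and 3697.5 with X-spermatozoa. In each sow the deposited signal was higher with Y-spermatozoa, but after quantile normalization the log2 difference was 0.06 (standard error 0.15) with 3 of 4 sows higher, and 3 of its 4 other probe sets went the other way. HSPA8, the constitutive HSP70, had a log2 difference of 0.01 (standard error 0.22). PTGES3, the p23 co-chaperone, averaged 496 with Y-spermatozoa and 461 with X-spermatozoa at a log2 difference of 0.11, and CDC37 had the largest of the list at 0.15 (exact permutation p = 0.171). Of 12 other FK506-binding proteins, 0 were called, and FKBP2 had a log2 difference of -0.02 (standard error 0.27). FKBP11, a secretory-pathway member, gave 484.1, 760.3, 383.8 and 769.9 with Y-spermatozoa and 426.9, 687.1, 388.9 and 721.2 with X-spermatozoa, high in sows 2 and 4 and low in sows 1 and 3.

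Co-activators held the only call of the lists. KAT5, the TIP60 histone acetyltransferase, gave 27.1, 32.7, 27.3 and 29.9 with Y-spermatozoa and 40.4, 36.1, 36.3 and 34.7 with X-spermatozoa. Every Y-spermatozoa array lay below every X-spermatozoa array, at a log2 difference of -0.30 (standard error 0.12, adjusted p = 1 in limma). The groups did not overlap in 2.3% of all probe sets, and how many of the 122 genes did so was not counted. KAT5 passed the unadjusted threshold, and the exact permutation p was 0.0286, the smallest that the 70 relabellings can give. In limma KAT5 no longer passed in the blocked fit, nor without any of the 4 sows in it, nor without Y1, Y3, Y4, X1, X2 or X3 (p up to 0.0898 beside the exact permutation p). With the hybridisation controls as a covariate, which nearly follows the sperm type, its log2 difference was -0.05 (standard error 0.18). In the blocked fit MED14, a Mediator subunit, and PPARGC1A, the PGC-1alpha co-activator, passed instead, at log2 differences of -0.34 and -0.36, and each was lower with Y-spermatozoa in 4 of 4 sows. Their limma p-values were 0.0225 and 0.0175 with the block, and the exact permutation p-values, which ignore the sows, 0.0857 and 0.229. MED14 and PPARGC1A were the 2 calls among the 122 genes in the blocked fit, against 5.09% of all probe sets. Of all probe sets, 13.2% had the same direction in 4 of 4 sows. The median of the 10 co-activators measured was -0.11, the lowest of the 10 lists. NCOA2, the p160 relative of NCOA1, had a log2 difference of -0.16, lower in 4 of 4 sows (exact permutation p = 0.371, limma p = 0.122 with the block). None of 6 co-repressors was called, with NCOR1 at -0.03 (standard error 0.13) and HDAC1 at 0.01 (standard error 0.15).

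**Figure D4:**
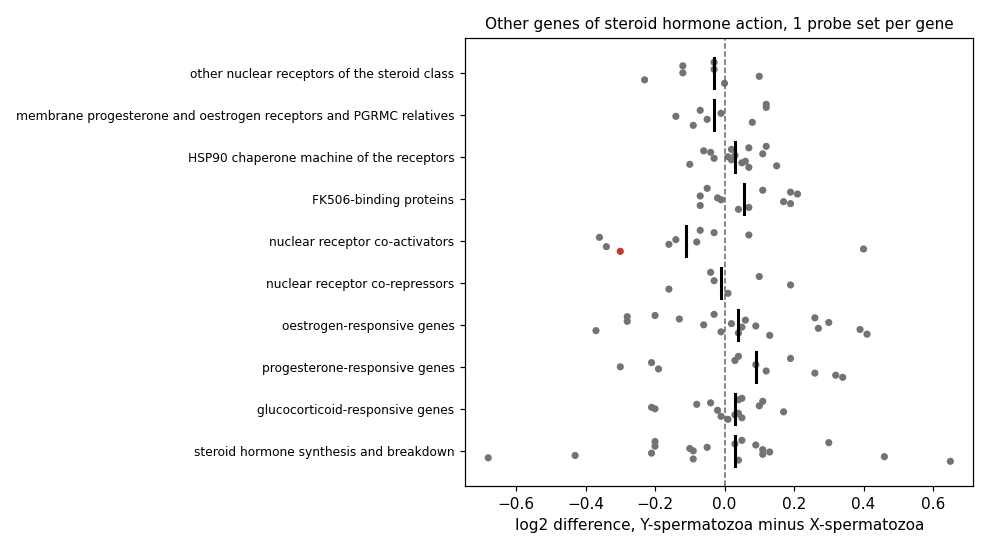
Normalized log2 signal with Y-spermatozoa minus that with X-spermatozoa (horizontal axis) for 122 genes in 10 lists, with 1 point per gene, a black bar at each list's median and the called gene, KAT5, in red. The medians lie between -0.11 (co-activators) and 0.09 (progesterone-responsive genes).

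None of the genes in the lists of oestrogen-, progesterone- and glucocorticoid-responsive genes was called. These lists leave out FKBP5, a hormone-induced gene whose dimmer probe set was the called member. Of 19 oestrogen-responsive genes measured, 0 passed, and the median log2 difference was 0.04. OVGP1, the oestrogen-driven glycoprotein of the oviduct, had signals of 9314.9, 8576.2, 9034.9 and 7768.9 with Y-spermatozoa and 6588.9, 8469.1, 7735.7 and 5841.4 with X-spermatozoa. It was higher with Y-spermatozoa in each sow as deposited, while quantile normalization, which ties the brightest probe sets across arrays, gave a log2 difference of 0.02 (standard error 0.12). C3, the complement component, was at 978.1, 1574.4, 1924.5 and 3419.1 with Y-spermatozoa and 1070.3, 1629.8, 971.8 and 1669.8 with X-spermatozoa, a log2 difference of 0.41 (standard error 0.36, exact permutation p = 0.4) with 2 sows in each direction. Of 11 progesterone-responsive genes 0 passed, with STAT3 at 0.03 (standard error 0.14) and STAT5B at 0.04 (standard error 0.13).

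The glucocorticoid-responsive genes, 15 measured and 15 above background on every array, had 0 calls and log2 differences of -0.21 to 0.17. TSC22D3, the leucine zipper GILZ, and PER1, a clock gene, are induced by the activated receptor, and their log2 differences were 0.05 and 0.11. GLUL, glutamine synthetase, averaged 810.78 ± 135.7 with Y-spermatozoa and 799 ± 61.3 with X-spermatozoa (SD, n = 4 each), and ANXA1, which mediates anti-inflammatory effects of glucocorticoids, had a log2 difference of 0.01 (standard error 0.16). Enzymes that make or break steroids had 0 calls among 19. HSD17B8, a mitochondrial dehydrogenase of fatty acid synthesis that can oxidise oestradiol, gave 207, 204.9, 206.6 and 203.5 with Y-spermatozoa and 199.9, 195.4, 185.1 and 189.2 with X-spermatozoa. Every Y-spermatozoa array lay above every X-spermatozoa array, and the groups did not overlap in 2.3% of all probe sets. The exact permutation p was 0.0286 as for KAT5, but the log2 difference was 0.09 (standard error 0.09) and did not pass in limma. STAR and CYP11A1, which begin steroid synthesis, were not above background on any array. HSD17B4, an enzyme of peroxisomes that can inactivate oestradiol, had a log2 difference of -0.05 (standard error 0.20). HSD11B1, which regenerates cortisol in tissues, was at 1301.6, 1143.2, 1081.1 and 2008.2 with Y-spermatozoa and 1081.6, 1024.6, 1094.9 and 1603.1 with X-spermatozoa. It was highest in sow 4 in either group, at a log2 difference of 0.13 (standard error 0.21, exact permutation p = 0.6).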

How the data were processed

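Oviducts of 4 sows were measured on 1 Affymetrix Porcine array each. The authors deposited linear signal intensities of Microarray Suite (MAS5, version 5.1), scaled to a trimmed mean of 100 per array. The methods describe RMA, which was not rebuilt here. Signals were quantile normalized, values under 1 set to 1 and log2 taken. The 124 AFFX controls were left out. Limma 3.58.1 (R 4.3.3) tested Y-spermatozoa minus X-spermatozoa, two-sided, in all 8 arrays without a block, with Benjamini-Hochberg adjustment over 23999 probe sets. Calls use an unadjusted p under 0.05 unless said otherwise. Figures used matplotlib 3.10.9 in Python 3.11.15.

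Oviducts were paired by the replicate number, on the reading that equal numbers mark the same animal, which the labels do not state. Deviations from group means correlated by 0.13 to 0.19 within these pairs. Oviducts of unlike number were not compared, so these values do not test the pairing. The sow as a block was an alternative, with others on scaling, pseudocount, filters, moderation and left-out arrays or sows. Symbols come from the platform annotation, and for the 10 lists also from current symbols by gene identifier. Members and lists were chosen with earlier results of these data known. Named were all members, up to 4 called genes of a list or otherwise its 2 brightest, and 3 most alike genes for each of ESR1, PGR and NR3C1. NR5A2, PAQR7, PAQR8, PTGES3, CDC37, MED14, PPARGC1A, NCOA2, TSC22D3, PER1, STAR, CYP11A1 and HSD17B8 were named after their values were seen. The F-test of sows, the background level and the covariate were also chosen then. The fits were tested on simulated data. The number of arrays limits the precision.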

Additional observations from a re-analysis of the deposited data

Results flagged for a closer look

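The ESR2 probe set in Y3 stood far from the other Y-spermatozoa arrays, at a signal of 8.7, with the nearest at 1.5. The gap was 0.911 of the range of the group. Of 34 groups of 4 arrays examined, this was the only 1 flagged, and chance flags about 1 in 20 groups. The value lay below the background of 9.8 of that array. Sow 3 also had the highest value with X-spermatozoa, at 7.1.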

How the results depend on the processing

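Without a block, 1 of the 17 probe sets and 1 gene of the lists were called. The counts were 0 and 2 in the fit with the replicate block (the sow), and 1 and 2 with the sow as a random effect. The members had 0 calls with a pseudocount of 16, among brighter probe sets only, with a trend in the moderation and with the hybridisation covariate. The t-test without moderation gave the members 1 call, NCOA1 Ssc.31120.1.A1_at in place of FKBP5. The lists had 2 calls with the pseudocount and in the t-test without moderation. With all probe sets of the listed genes in place of the brightest of each, there were 4 calls among a larger number of probe sets. Their share was not worked out, so these calls cannot be set against the 3.56% of all probe sets. Over all probe sets, 855 were called, against 1459 with the random block and 311 among the brighter ones, of which fewer were tested. Leaving out an array or a sow gave 0 to 1 calls among the members and 0 to 3 in the lists. The dimmer FKBP5 probe set then ran from -0.65 to -0.29 on the log2 scale, and passed without Y2, X2 or sow 2, but not without any of Y1, Y3, Y4, X1, X3, X4 or sows 1, 3 and 4. Between sows, 1 member was called among the brighter probe sets, whose own share of calls was not counted.

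The called FKBP5 difference of -0.44 changed sign, to 0.0684, with the hybridisation covariate, which nearly follows the sperm type. The other sign changes were of differences between -0.11 and 0.03. With the deposited scaling Ssc.31120.2.S1_at of NCOA1 was at -0.0368 and with arrays centred at -0.0042, where PGRMC1 was at 0.0128. With the covariate ESR1 was at -0.1422, PGRMC1 at 0.0389, NR3C1 Ssc.15928.1.S1_at at 0.0285 and NCOA1 Ssc.1414.1.A1_a_at at -0.1336. With an array left out the log2 differences ran from -0.0938 to 0.1664 for ESR1, from -0.1989 to 0.0369 for PGR, from -0.0924 to 0.003 for PGRMC1, from -0.16 to 0.0646 for NR3C1 Ssc.15928.1.A1_at, from -0.0349 to 0.0778 for NCOA1 Ssc.1414.1.A1_a_at and from -0.0611 to 0.0685 for NCOA1 Ssc.31120.2.S1_at. With a sow left out in the blocked fit the sign changed for ESR1 (-0.097), PGRMC1 (0.0248), NR3C1 Ssc.15928.1.A1_at (0.1163 and 0.044), NCOA1 Ssc.1414.1.A1_a_at (-0.0205) and NCOA1 Ssc.31120.2.S1_at (-0.1038 and -0.0317). The cause was not tested. ESR2 passed the unadjusted threshold without Y3 (log2 difference -1.25) and without sow 3 in the blocked fit (-0.86), at signals below background. Of 366 comparisons of a member with an alternative, 321 kept direction and side of the threshold, 13 lost the threshold, 3 passed it anew (these 2 of ESR2 and that of NCOA1) and 29 changed sign. The smallest adjusted p among them was 0.798. ESR2 and the NR3C1 probe set Ssc.15952.1.A1_at are limited by signal over background.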
